A study of Mus musculus with 12 samples.

Results

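The genes described here are the mouse interleukins and interleukin receptors, taken as every gene whose deposited name begins with Il followed by a digit. The rule found 79 genes among 23059, of which 38 encode ligands or the secreted antagonist Il1rn and 41 encode receptor chains or receptor-like proteins. They were measured by RNA-seq in epididymal white adipose tissue of male C57BL/6J mice aged 21 weeks, after 16 weeks on 1 of 4 diets, with 3 mice in each group. The ND group ate a normal diet (mice 2, 3 and 4), the HFD group a high-fat diet (mice 12, 15 and 18), the CLE group the high-fat diet with 1.5% by weight of an ethanol extract of chrysanthemum leaf (mice 2, 4 and 11), and the LU group the high-fat diet with 0.003% by weight of luteolin, a flavone (mice 2, 3 and 8). The questions were which interleukin genes differed with the high-fat diet, and which differed again when either supplement was added to it.

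Interleukins are secreted cytokines that carry signals between immune cells, and between immune cells and the tissue around them. Most bind receptors built from a private chain and a shared one (the common gamma chain Il2rg, gp130 encoded by Il6st, or Il10rb) that signal through Janus kinases and STAT factors. The IL-1 and IL-17 families use other receptors, which signal through adaptor proteins to NF-kB, and the IL-1 family is held back by an antagonist and by decoy receptors. In adipose tissue these genes are known from macrophages, mast cells, lymphocytes and stromal cells as well as from adipocytes.

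Levels are given as FPKM, fragments scaled by the length of the transcript and by the number of mapped fragments, summed over the transcripts of a gene, so that they are per length and may be compared between genes. Differences are given as differences of mean log2(FPKM + 1) ± SE, from limma over all 12 libraries and 12802 genes, and they understate the change of genes with low levels. A gene was called where its Benjamini-Hochberg adjusted p was under 0.05 and its fold change above 1.5. Of the 79 genes 35 passed the filter of at least 1 FPKM in at least 3 libraries and were tested, 9 of 38 ligands and 26 of 41 receptor chains. Il13ra2 passed it through the HFD libraries and 1 LU library, so that its difference was built into the filter, and counts over the tested genes are given as a description.

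The tissue label was matched by its markers, since the 7 adipocyte markers summed to between 16420 and 28920 FPKM in every library. Some libraries stood apart. In HFD mouse 12 and CLE mouse 11, 8 genes of the epidermis summed to 241.5 and 756.7 FPKM, against 24.3 to 48.4 FPKM in the other 10 libraries, and only these 2 listed Il1f6 and Il1f8 above 0. A letter R of unstated meaning stands in the labels of 4 libraries, from mouse 2 of LU, mouse 4 of CLE and mice 3 and 4 of ND, and in none of HFD. Epididymis markers summed to 5.54 FPKM in ND mouse 4 and 5.64 in LU mouse 8, against at most 2.17 FPKM in the other libraries, and mesothelial markers to 59.7 FPKM in ND mouse 4 against 2.32 to 23.1 FPKM elsewhere. Calls lost without the libraries with epidermal genes or those with the letter R are named below. The sum of 8 macrophage markers was 335 to 502 FPKM in ND, 2260 to 2601 in HFD, 576 to 848 in CLE and 909 to 1034 in LU, and 8 of 8 were called higher in HFD than in ND and 8 of 8 lower with each supplement than in HFD. In whole tissue a change in the number of cells of a type and a change in RNA per cell cannot be told apart, and the part of the macrophage markers in the results below was not tested.

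Receptor chains were far more abundant than ligands. Il6st, the signalling chain shared by IL-6, IL-11 and IL-27, had the highest mean over all libraries at 79.3 FPKM, before Il15ra at 39.0, Il10rb at 31.5, Il6ra at 30.4 and Il11ra1 at 27.0 FPKM. Of the 9 tested ligands only Il34, at 14.7 FPKM, exceeded 10 FPKM on average, and the antagonist Il1rn followed at 9.14 FPKM with most of that in HFD. The classic inflammatory ligands were near the limit of measurement. Il6 was 0.164, 0.141 and 0 FPKM in ND and 0.0588, 0.121 and 0.104 FPKM in HFD. CLE had 0, 0 and 0.0689 FPKM of Il6, and LU had 0.124, 0.242 and 0.061 FPKM, so that every group overlapped the others.

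**Figure D1:**
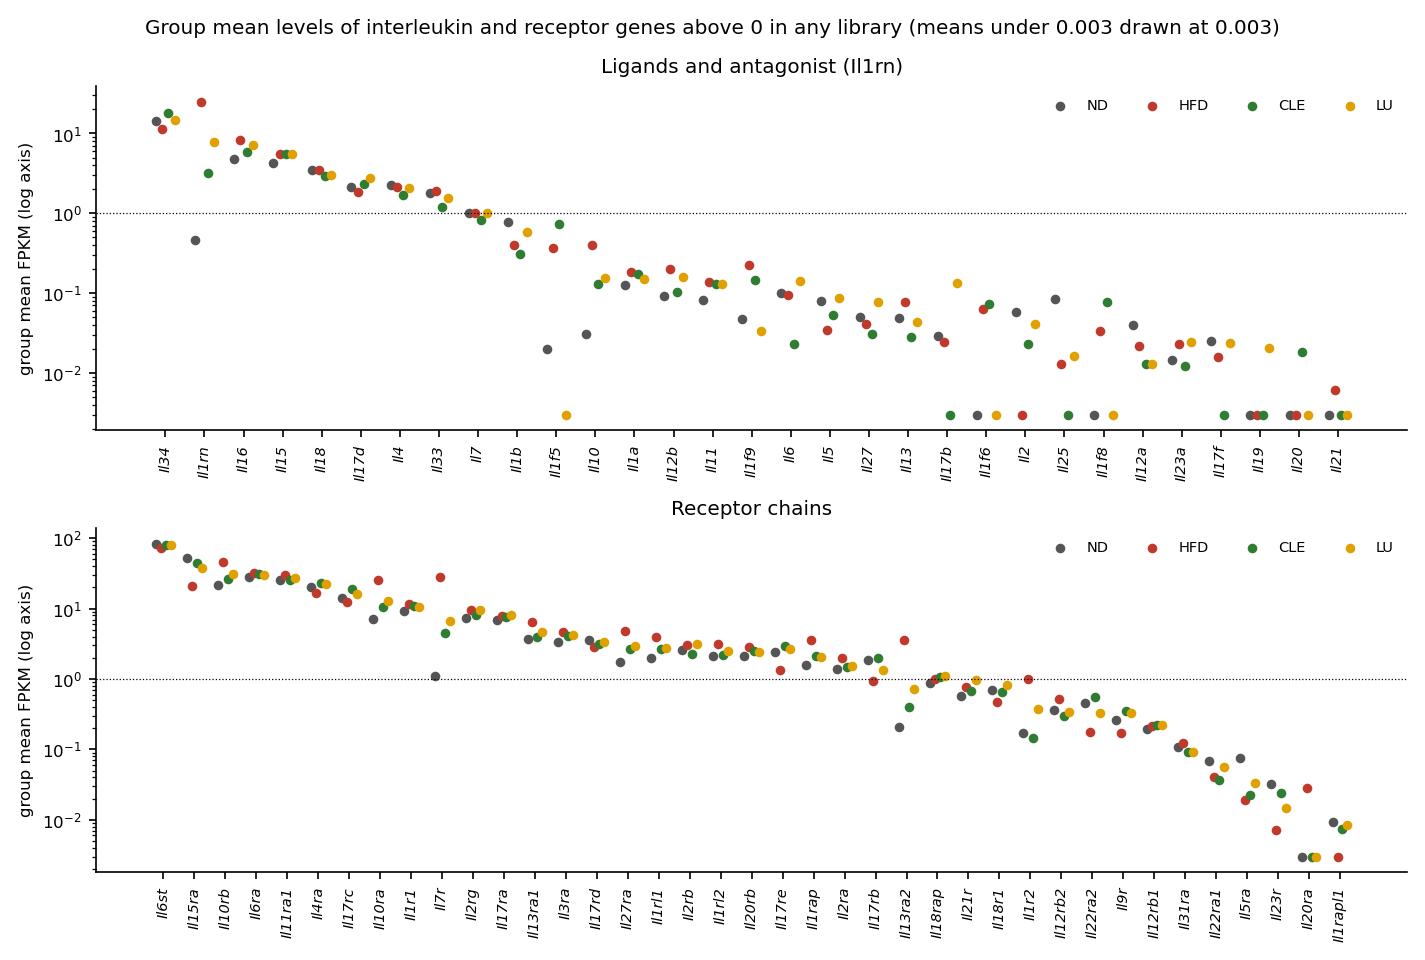
Group mean FPKM (log axis) of the ligands (top) and receptor chains (bottom) that were above 0 in any library, ordered by their mean over all libraries, with 1 point per diet group. Receptor chains such as Il6st and Il15ra lie highest, at group means of up to 84.0 and 53.2 FPKM, most ligands lie under the dotted line at 1 FPKM, and the HFD points of Il1rn, Il7r and Il13ra2 stand far above their ND points.

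On the high-fat diet 11 of the 35 tested genes changed against ND. Called higher were 10, or 28.6% of those tested, where 14.9% of all genes were called higher, and called lower was 1, where 10.8% of all genes were. The median difference of the 35 genes was 0.23, against -0.02 over all genes. Of the 35 genes 18 had an unadjusted p under 0.05 (limma), where 56.7% of all genes had. The genes that rose were 8 receptor chains (Il7r, Il13ra2, Il10ra, Il27ra, Il10rb, Il1rap, Il1rl1 and Il13ra1), the antagonist Il1rn and the ligand Il16, and the gene that fell was Il15ra. Among the ligands of these receptors Il4, Il7 and Il33 were tested and not called, and Il10, Il13 and Il27 lay below the filter.

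**Figure D2:**
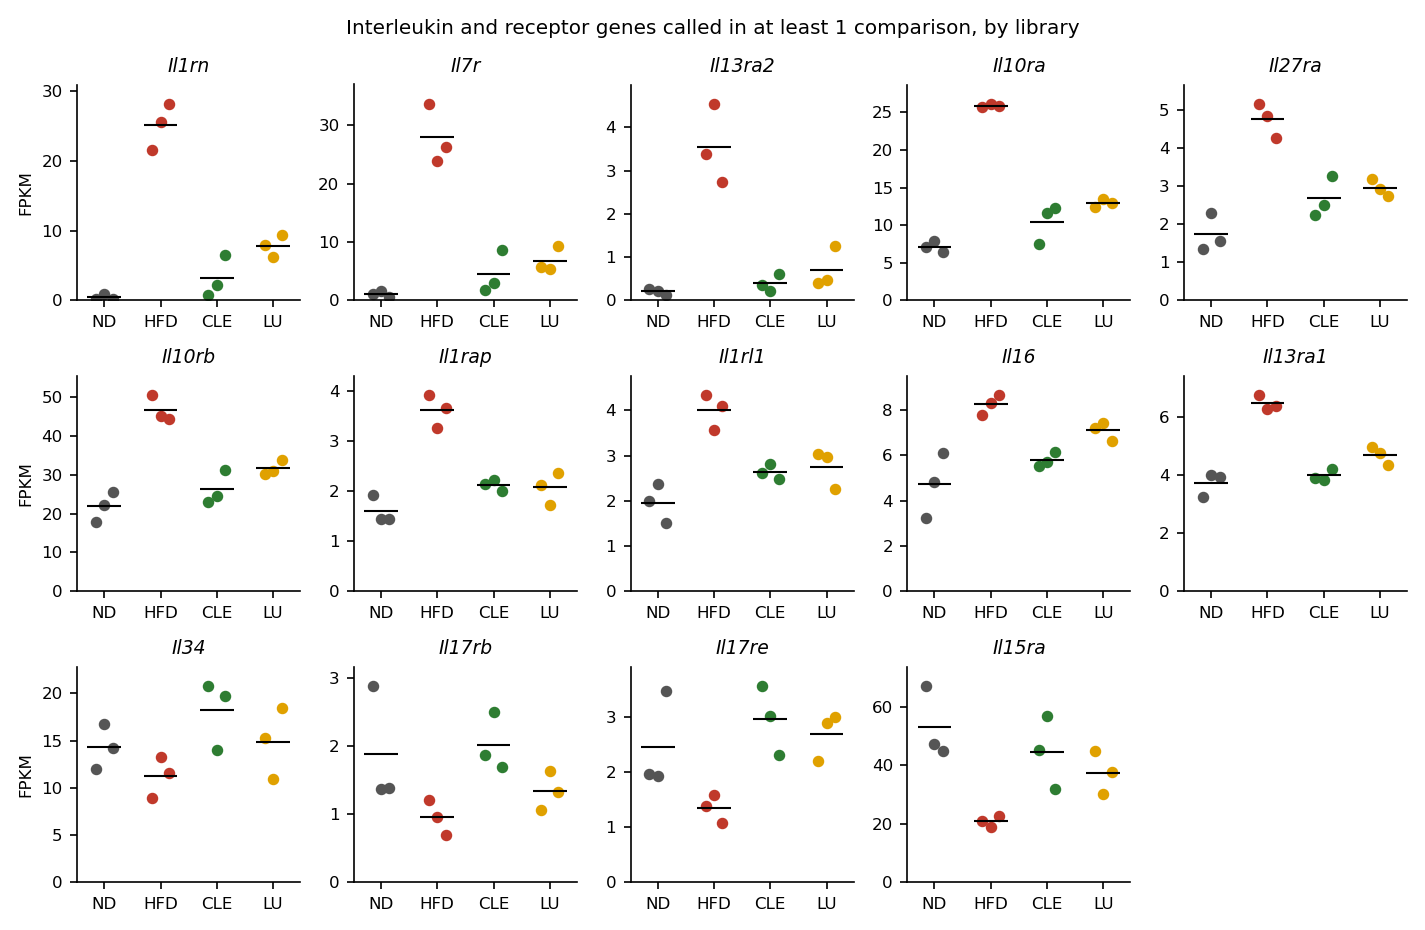
FPKM in each library (1 point per mouse, 3 per group; the bar is the group mean) of the 14 genes called in at least 1 comparison, ordered from the gene most above ND in HFD to the gene most below it. The 3 HFD points of Il1rn, Il7r, Il13ra2 and Il10ra lie above all other libraries, and those of Il15ra and Il17re lie below all others.

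Within the IL-1 family the largest change was that of Il1rn, which encodes the antagonist that occupies the IL-1 receptor without signalling. Il1rn was 0.248, 0.963 and 0.183 FPKM in ND and 21.5, 25.5 and 28.1 FPKM in HFD. The groups were far apart, and the ratio of the means was 53.8 (difference 4.18 ± 0.39, adjusted p = 7.61e-06, limma). CLE had 0.843, 2.27 and 6.52 FPKM of Il1rn, all below HFD, with mouse 11 the highest of its group (difference from HFD -2.86 ± 0.39, adjusted p = 0.000268, limma). LU had 7.95, 6.23 and 9.37 FPKM, between ND and HFD, and was called lower than HFD (-1.57 ± 0.39, adjusted p = 0.0133, limma) and higher than ND (2.62 ± 0.39, adjusted p = 0.00236). The call against HFD was lost without LU mouse 3 (-1.43, adjusted p = 0.0523), without the letter R libraries (adjusted p = 0.0677) and with a pseudocount of 0.1 (adjusted p = 0.0753).

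The agonists that Il1rn opposes stayed low. Il1a was at most 0.252 FPKM in any library. Il1b, the main inflammatory ligand of the family, was 0.673, 1.35 and 0.318 FPKM in ND and 0.429, 0.192 and 0.577 FPKM in HFD, and it was too low to be tested. CLE had 0.336, 0.336 and 0.268 FPKM of Il1b and LU 0.450, 0.914 and 0.395 FPKM. The ND and HFD libraries overlapped (exact permutation test, two-sided p = 0.4), as did those of HFD and either supplement. Il18, activated by the same protease as IL-1beta, was 3.24, 4.05 and 3.10 FPKM in ND, 3.57, 3.61 and 3.20 in HFD, 2.29, 3.06 and 3.33 in CLE and 3.11, 4.10 and 1.89 in LU, with no difference called (HFD against ND 0.0036, 95% interval -0.39 to 0.40). Il33, an alarmin stored in the nucleus of stromal cells, was 1.59, 1.69 and 2.18 FPKM in ND and 2.07, 2.07 and 1.63 FPKM in HFD, 1.41, 1.29 and 0.921 in CLE and 2.02, 1.67 and 1.00 in LU. Its difference in CLE against HFD was -0.41 ± 0.15 and missed the threshold (adjusted p = 0.0557, limma).

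Most IL-1 family receptor chains under the name rule lie side by side on chromosome 1. They run from 40074079 at the start of Il1r2 to 40551705 at the end of Il18rap (GRCm38). Il1rap lies on chromosome 16, and Il1rapl1 and Il1rapl2 lie on chromosome X. Il1rl1, the ST2 chain that binds IL-33, was 2.0, 2.36 and 1.52 FPKM in ND and 4.34, 3.58 and 4.10 FPKM in HFD (0.76 ± 0.12, adjusted p = 0.000314, limma). Il1rap, the accessory chain that the IL-1 and IL-33 receptors both need, was 1.93, 1.45 and 1.45 FPKM in ND and 3.92, 3.27 and 3.66 FPKM in HFD (0.83 ± 0.10, adjusted p = 5.99e-05, limma). Both rose, and no ND library reached an HFD library. Il1r1, the signalling receptor of IL-1, went from a mean of 9.33 ± 0.20 to 11.6 ± 0.51 FPKM (SD, n = 3), a difference of 0.29 that passed the adjusted p (0.0316) but not the fold threshold. Il1r2, the decoy that binds IL-1 without signalling, was 0.174, 0.220 and 0.127 FPKM in ND and 0.511, 1.39 and 1.1 FPKM in HFD and fell short of the filter. In CLE it was 0.0825, 0.118 and 0.242 FPKM, under all HFD libraries, and in LU 0.147, 0.335 and 0.651 FPKM. HFD lay wholly above ND and CLE and overlapped LU. With no filter on low values it was called higher in HFD (0.74, adjusted p = 0.00749, limma) and lower in CLE than in HFD (-0.78, adjusted p = 0.00983). Assembled variants gave 90.2% of the FPKM of Il1r2. The 6 neutrophil markers summed to 6.12 to 14.8 FPKM in ND and 70.2 to 119 FPKM in HFD, nearly all of it S100a8 (means 10.2 and 101 FPKM). Of the 2 tested S100a8 was called higher in HFD and S100a9 lower (means 1.42 and 0.381 FPKM), and Ly6g was at 0 in all libraries. Mast cell markers summed to 9.58 to 15.3 FPKM in ND and 13.6 to 21.7 FPKM in HFD, with 4 of the 5 tested called higher and 1 lower. Their part in the values of Il1r2 and Il1rl1 was not tested.

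With the supplements Il1rap was 2.14, 2.23 and 2.01 FPKM in CLE and 2.12, 1.73 and 2.37 FPKM in LU. The fall was called with LU (-0.59 ± 0.10, adjusted p = 0.00204, limma), just past the 1.5-fold threshold. It was not called with CLE, where a difference of -0.56 ± 0.10 with an adjusted p of 0.00171 lay just short of that threshold. With a pseudocount of 0.1 the fall was called with CLE too (-0.74, adjusted p = 0.00246, limma). Il1rl1 was 2.62, 2.82 and 2.48 FPKM in CLE and 3.03, 2.97 and 2.26 FPKM in LU, with differences from HFD of -0.46 and -0.42 that passed the adjusted p but not the fold. For Il1rap in LU the call was lost without HFD mouse 12 (-0.54), without HFD mouse 18 (-0.58) or without LU mouse 3 (-0.51), the adjusted p staying at or under 0.0124. It was also lost with the letter R as a covariate (-0.57), without assembled variants (-0.48) and with the transcript of highest mean alone (-0.50, adjusted p = 0.118).

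Among the receptors that use or neighbour the common gamma chain, Il7r changed most. It encodes the IL-7 receptor alpha chain, which is known from lymphocytes and is also the partner of Crlf2 in the receptor for TSLP. Il7r was 1.11, 1.67 and 0.572 FPKM in ND and 33.7, 23.9 and 26.4 FPKM in HFD. The ratio of the means was 25.0 (difference 3.79 ± 0.38, adjusted p = 1.2e-05, limma). In CLE it was 1.76, 2.97 and 8.66 FPKM and in LU 5.67, 5.34 and 9.27 FPKM, so that both supplemented groups lay below every HFD and above every ND library. The differences from HFD were -2.60 ± 0.38 with CLE (adjusted p = 0.000399) and -1.92 ± 0.38 with LU (adjusted p = 0.00392, limma). LU remained above ND (1.87 ± 0.38, adjusted p = 0.00945). The 7 T cell markers summed to 5.01 to 7.23 FPKM in ND and 6.86 to 11.04 FPKM in HFD, and 1 of the 3 that could be tested was called higher. B cell markers summed to 3.06 to 7.36 FPKM in ND and 1.53 to 2.43 FPKM in HFD. NK cell markers summed to 2.64 to 5.97 FPKM in ND and 4.17 to 6.24 FPKM in HFD. In these 2 lists no tested marker was called in HFD against ND. The part of lymphocytes in the values of Il7r was not tested.

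Both IL-13 receptors rose in HFD, and Il4ra, the partner of Il13ra1, was not called. Il13ra2, a receptor with a short cytoplasmic tail that is best known as a decoy for IL-13, was 0.262, 0.224 and 0.136 FPKM in ND and 3.37, 4.54 and 2.74 FPKM in HFD (1.90 ± 0.19, adjusted p = 1.13e-05, limma). Assembled variants gave 83.8% of its FPKM. It was 0.361, 0.227 and 0.610 FPKM in CLE and 0.406, 0.461 and 1.27 FPKM in LU. Both supplemented groups lay wholly below HFD (CLE -1.69 ± 0.19, adjusted p = 7.13e-05, and LU -1.43 ± 0.19, adjusted p = 0.00041, limma). Il13ra2 passed the filter through the HFD libraries and 1 LU library. Its differences were therefore built into the filter and are given as a description. Il13ra1, which signals for IL-4 and IL-13 as a pair with Il4ra, was 3.23, 3.99 and 3.94 FPKM in ND and 6.74, 6.28 and 6.36 FPKM in HFD (0.66 ± 0.09, adjusted p = 7.37e-05, limma). With the extract it was 3.91, 3.82 and 4.22 FPKM and in LU 4.95, 4.75 and 4.36 FPKM. These values were also all below HFD, but the differences of -0.58 and -0.39 lay under the fold threshold (adjusted p = 0.000408 and 0.00645, limma). With a pseudocount of 0.1 the CLE difference was called (-0.685, adjusted p = 0.000548, limma). Il4ra itself was 21.9, 16.2 and 21.9 FPKM in ND, 16.6, 15.6 and 18.6 in HFD, 20.3, 23.1 and 25.7 in CLE and 21.4, 23.2 and 23.0 in LU. It was not called, with a difference of -0.22 for HFD against ND (adjusted p = 0.169) and of 0.42 and 0.40 for CLE and LU against HFD (adjusted p = 0.0241 and 0.0374, limma), under the fold threshold.

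Il15ra was the only gene of the 35 tested that was called lower in HFD. It encodes the chain that holds IL-15 on the cell surface and presents it to neighbouring cells. Il15ra was 67.1, 47.5 and 45.0 FPKM in ND and 21.0, 19.1 and 22.6 FPKM in HFD, with a ratio of the means of 0.392 (-1.29 ± 0.21, adjusted p = 0.000423, limma). CLE had 45.2, 56.8 and 31.8 FPKM and LU 44.8, 30.2 and 37.6 FPKM. Every supplemented library lay above every HFD library (CLE 1.02 ± 0.21, adjusted p = 0.00345, and LU 0.80 ± 0.21, adjusted p = 0.0167, limma). Markers of other cells moved too. Of the 7 adipocyte markers 6 were called lower and 1 higher in HFD than in ND, 6 higher and 1 lower with CLE than in HFD, and 2 higher and 1 lower with LU. Of the 6 mesothelial markers 5 were called lower in HFD and 1 higher with each supplement, and of the 5 endothelial markers 1 was lower in HFD, 3 higher with CLE and 4 higher with LU. The part of these cells in the values of Il15ra was not tested. The LU call of Il15ra was lost without HFD mouse 15 (0.74, adjusted p = 0.0581) and without LU mouse 2 (0.67, adjusted p = 0.0645). The ligand Il15 was 3.69, 3.31 and 5.68 FPKM in ND, 4.69, 6.44 and 5.71 in HFD, 3.45, 6.78 and 6.51 in CLE and 5.38, 6.05 and 5.33 in LU, and no difference was called (HFD against ND 0.36, 95% interval -0.11 to 0.83). In the deposited table the transcripts of Il15ra stand under the name of the neighbouring gene Il2ra, which encodes the IL-2 receptor alpha chain. Taken by their transcript identifiers, the transcripts of Il2ra itself gave only 1.41 ± 0.12 FPKM in ND and 1.97 ± 0.33 FPKM in HFD (SD, n = 3) and no call. Summed by the deposited name, Il2ra would have been called lower in HFD (-1.20).

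Both chains of the IL-10 receptor rose in HFD. Il10ra, the ligand-binding chain, was 7.09, 7.86 and 6.39 FPKM in ND and 25.7, 26.1 and 25.9 FPKM in HFD (1.73 ± 0.15, adjusted p = 3.51e-06, limma). The CLE libraries had 7.44, 11.7 and 12.3 FPKM and the LU libraries 12.5, 13.5 and 13.01 FPKM. Both were below HFD (CLE -1.26 ± 0.15, adjusted p = 8.9e-05, and LU -0.94 ± 0.15, adjusted p = 0.000972, limma), and LU was above ND (0.79 ± 0.15, adjusted p = 0.00606). Il10rb, the chain shared with the receptors for IL-22 and the lambda interferons, was 17.8, 22.1 and 25.6 FPKM in ND and 50.4, 45.1 and 44.2 FPKM in HFD (1.07 ± 0.14, adjusted p = 6.92e-05, limma). In CLE it was 23.0, 24.5 and 31.1 FPKM and was called lower than HFD (-0.82 ± 0.14, adjusted p = 0.000958). In LU it was 30.1, 30.9 and 33.6 FPKM and its difference of -0.55 ± 0.14 passed the adjusted p (0.0132) but not the fold. Summed by the deposited name, under which 8 transcripts of the neighbouring Ifnar2 also stand, the CLE difference of Il10rb was -0.48 and no longer called. The ligand Il10 was 0.0399, 0.0537 and 0 FPKM in ND and 0.261, 0.225 and 0.701 FPKM in HFD, below the filter. CLE had 0.0959, 0.138 and 0.151 FPKM and LU 0.0932, 0.183 and 0.182 FPKM of Il10. No HFD library overlapped another group, and the exact permutation test gave p = 0.1 for HFD against ND (two-sided), the smallest value that 3 against 3 mice allow.

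Il27ra was the 1 gene called among the 4 tested receptors of the gp130 and IL-12 family. It pairs with Il6st to bind IL-27, and was 1.36, 2.29 and 1.57 FPKM in ND and 5.15, 4.85 and 4.26 FPKM in HFD (1.08 ± 0.14, adjusted p = 5.85e-05, limma). In CLE it was 2.26, 2.51 and 3.27 FPKM, called lower than HFD (-0.65 ± 0.14, adjusted p = 0.00347), and in LU 3.18, 2.93 and 2.73 FPKM, with a difference of -0.54 ± 0.14 under the fold threshold (adjusted p = 0.0126). With a pseudocount of 0.1 the LU difference was called (-0.67, adjusted p = 0.0225, limma). Without CLE mouse 2 the CLE difference was -0.57 and under the fold threshold. Assembled variants of annotated transcripts gave 67.4% of its FPKM, and without them neither Il27ra difference was called, the HFD difference being 0.56 (adjusted p = 0.126, limma) and the CLE difference -0.63 (adjusted p = 0.118). Il6st was 90.5, 75.2 and 86.2 FPKM in ND, 71.0, 69.1 and 78.8 in HFD, 77.6, 84.2 and 78.7 in CLE and 86.7, 80.9 and 73.1 in LU, so that the groups overlapped (HFD against ND -0.20, 95% interval -0.41 to 0.014). Il6ra and Il11ra1, the private chains for IL-6 and IL-11, were not called in any of the 6 comparisons.

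**Figure D3:**
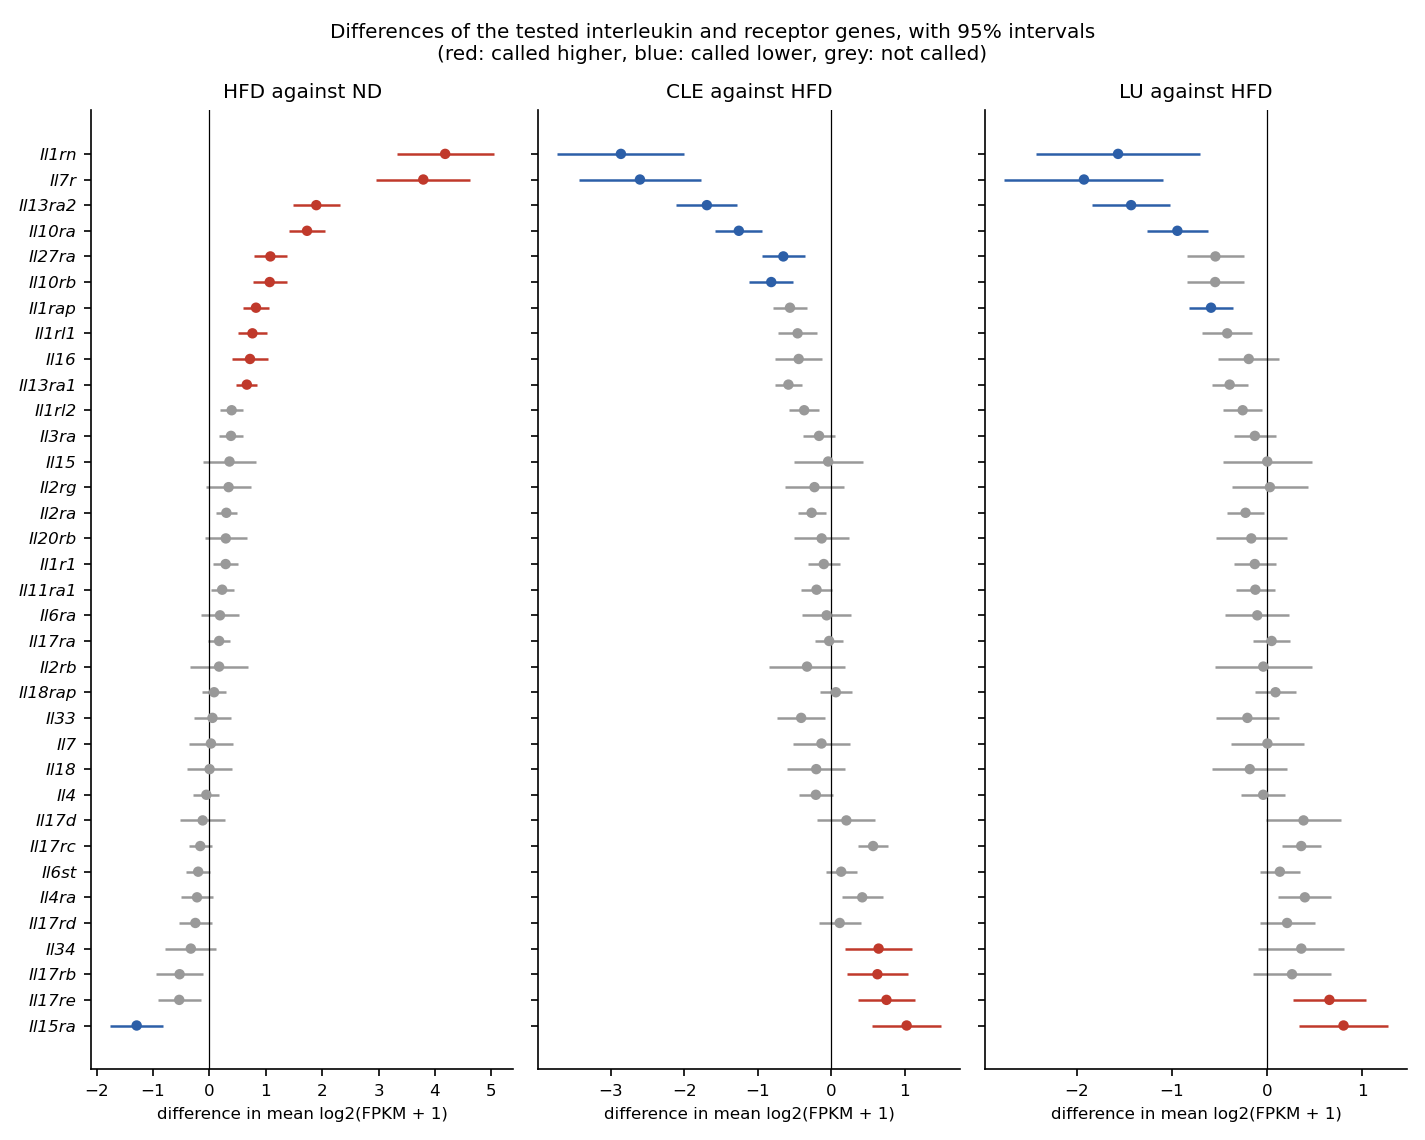
Differences in mean log2(FPKM + 1) with 95% intervals for the 35 tested genes in HFD against ND (left), CLE against HFD (middle) and LU against HFD (right), ordered by the left panel. Red marks genes called higher and blue genes called lower. The uppermost genes, Il1rn at 4.18 and Il7r at 3.79, are below 0 in both supplement panels, and Il15ra at the foot is above 0 in both.

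Of the 5 IL-17 receptors, all tested, 0 were called by limma in HFD against ND, and against HFD 2 were called higher with the extract and 1 with luteolin, where 6.34% and 4.79% of all genes were. In HFD against ND 2, Il17re and Il17rb, passed the adjusted p but not the fold threshold (Il17rb -0.53, adjusted p = 0.0347, limma). Both were called lower with a pseudocount of 0.1 (Il17re -0.78 and Il17rb -0.86) and with quantile normalization (-0.62 and -0.61). Il17re, a receptor for IL-17C that pairs with Il17ra, was 1.96, 1.94 and 3.47 FPKM in ND and 1.38, 1.59 and 1.07 FPKM in HFD, a difference of -0.54 that passed the adjusted p (0.0244) but not the fold. In CLE it was 3.56, 3.02 and 2.32 FPKM and in LU 2.2, 2.90 and 2.995 FPKM, all above HFD (CLE 0.75 ± 0.18, adjusted p = 0.00679, and LU 0.65 ± 0.18, adjusted p = 0.0177, limma). The LU call was lost without HFD mouse 18 (0.57), LU mouse 3 (0.61) or LU mouse 8 (0.60). Il17rb, which binds IL-25, was 2.88, 1.37 and 1.38 FPKM in ND, 1.21, 0.952 and 0.699 in HFD, 1.87, 2.49 and 1.69 in CLE and 1.06, 1.63 and 1.33 in LU. It was called higher in CLE than in HFD (0.63 ± 0.19, adjusted p = 0.0237, limma), a call lost without HFD mouse 15, HFD mouse 18 or CLE mouse 4 (adjusted p = 0.0581, 0.0896 and 0.0932). With the letter R libraries left out the difference was 0.52, under the fold threshold. Il17rc, which forms the IL-17A receptor with Il17ra, had means of 14.1 ± 1.48 FPKM in ND, 12.4 ± 0.31 in HFD, 19.0 ± 1.70 in CLE and 16.2 ± 0.62 in LU (SD, n = 3 each). Its difference of 0.57 in CLE against HFD had an adjusted p of 0.000802 and lay just under the fold threshold. It was called higher with a pseudocount of 0.1 (0.602) and with quantile normalization (0.62). The ligands were nearly absent: Il17a was listed at 0 in every library, and Il17b, Il17f and Il25 were at most 0.246 FPKM, while Il17d was tested and not called.

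Il16 and Il34 were the ligands, besides the antagonist, with a call. Il16, a chemoattractant for CD4-bearing cells, was 3.25, 4.83 and 6.09 FPKM in ND and 7.76, 8.30 and 8.64 FPKM in HFD (0.72 ± 0.15, adjusted p = 0.00179, limma). CLE had 5.54, 5.71 and 6.13 FPKM of Il16 and LU 7.19, 7.43 and 6.62 FPKM, with no call against HFD. Without ND mouse 2 the HFD difference was 0.52, under the fold threshold. Il34, which shares the receptor Csf1r with the macrophage growth factor Csf1, was 12.0, 16.8 and 14.3 FPKM in ND, 8.96, 13.3 and 11.6 in HFD, 20.8, 14.1 and 19.8 in CLE and 15.2, 10.9 and 18.5 in LU. It was called higher in CLE than in HFD (0.64 ± 0.21, adjusted p = 0.0315, limma). The call was lost without HFD mouse 12 and CLE mouse 11, the libraries with epidermal genes (0.44, adjusted p = 0.229), and also without HFD mouse 12, HFD mouse 18, CLE mouse 2 or CLE mouse 11 alone (adjusted p from 0.0658 to 0.124).

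Against HFD, the CLE group thus had 6 of 35 tested genes lower and 4 higher, or 17.1% and 11.4%, where 10.2% of all genes were called lower and 6.34% higher. In LU 5 were lower and 2 higher, or 14.3% and 5.71%, where 7.66% and 4.79% of all genes were. An unadjusted p under 0.05 (limma) was found for 19 of the 35 genes with CLE, where 43.9% of all genes had one. With LU it was found for 15, where 39.3% of all genes had one. Without HFD mouse 12 and CLE mouse 11 the CLE counts were 8 lower and 3 higher, with Il2rg (-0.60) and Il13ra1 (-0.59) added to the lower ones, and the LU counts 4 and 2. Without the letter R libraries Il27ra was called lower in LU too (-0.59, adjusted p = 0.0253, limma). Both comparisons share the HFD mice, as does HFD against ND, so that their directions are not independent of each other. Called lower with CLE were Il1rn, Il7r, Il13ra2, Il10ra, Il10rb and Il27ra, and called lower with LU were Il1rn, Il7r, Il13ra2, Il10ra and Il1rap.

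Set against ND, CLE had 0 of 35 genes called higher and 0 lower by limma, where 2.11% and 0.875% of all genes were. Of the 35 genes 9 had an unadjusted p under 0.05, where 23.3% of all genes had. The intervals do not exclude a remaining difference: Il1rn was 1.321 above ND (95% interval 0.46 to 2.18, adjusted p = 0.071) and Il7r 1.19 above it (0.36 to 2.03, adjusted p = 0.0879). Without CLE mouse 2 the 3 genes Il1rn, Il7r and Il10ra were called higher in CLE than in ND. LU had 3 genes called higher than ND, namely Il1rn, Il7r and Il10ra, or 8.57%, and 0 lower, where 4.97% and 1.59% of all genes were called. An unadjusted p under 0.05 was found for 13 of the 35 genes, where 27.7% of all genes had one. The 3 LU calls were lost when the letter R libraries were left out, which leaves 1 ND mouse that is assumed to vary like the other groups (adjusted p = 0.0632, 0.12 and 0.0887), while the differences themselves were 2.79, 1.94 and 0.82. With the letter as a covariate all 3 were called.

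Between the supplements 3 of 35 genes had an unadjusted p under 0.05, where 5.21% of all genes had. By limma 0 of the 35 were called, where 0.00781% of all genes were, or 1 gene. The extract and luteolin were given at different doses, so that this compares the diets as fed. Il1rn was lower in CLE than in LU by 1.30 on the log2 scale (difference -1.30, 95% interval -2.16 to -0.43, adjusted p = 0.897), and LU mouse 3 lay below CLE mouse 11. For Il7r the difference was -0.68 (95% interval -1.51 to 0.16), for Il10ra -0.32 (-0.64 to 0.0053) and for Il13ra2 -0.26 (-0.68 to 0.15). These intervals hold differences of more than 1.5-fold for Il1rn, Il7r, Il10ra and Il13ra2, so that the test does not show the supplements to act alike.

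The transcripts behind the sums showed where some of the changes lay. Il1rn transcripts start at 2 places on chromosome 2, at 24336853 and 24345310 for the transcripts Il1rn-204 and Il1rn-201 (GRCm38), and the gene is known for alternative first exons that give a secreted and an intracellular antagonist. The 4 transcripts from the downstream start summed to 0.248, 0.790 and 0.183 FPKM in ND and 17.3, 17.8 and 16.1 FPKM in HFD. Those from the upstream start summed to at most 0.174 FPKM in ND and to 4.24, 7.71 and 12.0 FPKM in HFD. Both sets were therefore higher in HFD, and CLE had at most 5.40 and 1.12 FPKM of them. For Il15ra the annotated protein-coding transcripts summed to 30.9, 25.1 and 20.5 FPKM in ND and 10.1, 9.63 and 9.17 FPKM in HFD, and the annotated non-coding ones to 24.9, 15.3 and 16.8 against 7.95, 6.16 and 9.91 FPKM. Both classes lay below ND in every HFD library.

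Elsewhere the class of transcript limits what a call says. Protein-coding transcripts of Il34 had means of 6.07 ± 0.51 FPKM in HFD and 7.13 ± 0.76 FPKM in CLE (SD, n = 3), while its non-coding transcripts had 3.91 ± 1.81 and 9.04 ± 3.52 FPKM. Most of the CLE difference of Il34 was thus in non-coding forms. The rise of Il1rl1 lay in assembled variants, with means of 1.14 ± 0.55 FPKM in ND and 3.27 ± 0.056 FPKM in HFD, and not in its annotated transcripts, with 0.822 ± 0.13 and 0.736 ± 0.34 FPKM. Of the FPKM of Il4, 99.3% was in non-coding or incomplete transcripts, so that its group means of 1.71 to 2.26 FPKM were hardly from coding transcripts. Il18 had 98.5% of its FPKM in assembled variants. The main transcript of Il16 was the short form Il16-203, at 2.40, 4.00 and 4.36 FPKM in ND and 6.62, 6.61 and 7.997 FPKM in HFD.

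**Figure D4:**
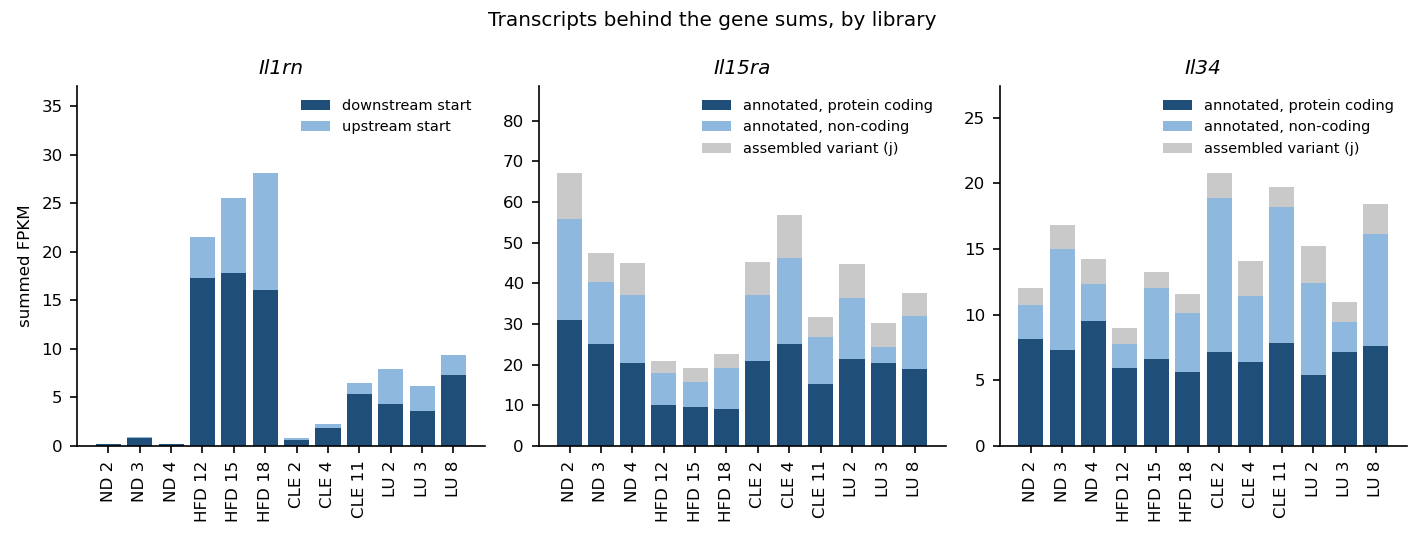
Summed FPKM in each of the 12 libraries (bars, labelled by group and mouse) of Il1rn by transcription start and of Il15ra and Il34 by class of transcript. Both starts of Il1rn are highest in the 3 HFD libraries, the coding part of Il15ra is lowest there, and the coding part of Il34 stays between 5.44 and 9.55 FPKM while its non-coding part varies.

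The promoters of the genes with the largest HFD differences are shown because these genes moved together, as 250 bases before to 50 after a start, from RefSeq on GRCm38.p6. Of the 4 genes with the largest differences the sequences used here hold Il1rn, Il7r and Il13ra2, and not Il10ra. Capitals mark matches on either strand to 4 short motifs: TTCNNNGAA (STAT factors), TGANTCA (AP-1), GGNNNTTCC (an NF-kB type site) and GAGGAAGT (a PU.1 type site, a factor of myeloid cells).
Il1rn downstream start, chr2:24345041-24345340 (+): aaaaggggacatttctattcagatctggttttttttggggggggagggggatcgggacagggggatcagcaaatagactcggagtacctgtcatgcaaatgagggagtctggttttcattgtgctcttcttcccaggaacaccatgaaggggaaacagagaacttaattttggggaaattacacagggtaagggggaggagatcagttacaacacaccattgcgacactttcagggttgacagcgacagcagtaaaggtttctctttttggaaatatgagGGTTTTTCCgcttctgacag
Il1rn upstream start, chr2:24336610-24336909 (+): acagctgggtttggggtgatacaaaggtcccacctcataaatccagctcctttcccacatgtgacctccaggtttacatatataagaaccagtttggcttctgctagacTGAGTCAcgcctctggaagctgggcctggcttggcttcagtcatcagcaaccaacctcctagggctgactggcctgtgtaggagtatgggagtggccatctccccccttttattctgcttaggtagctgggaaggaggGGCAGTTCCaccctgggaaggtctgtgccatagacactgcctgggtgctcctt
Il7r, chr15:9529827-9530126 (-): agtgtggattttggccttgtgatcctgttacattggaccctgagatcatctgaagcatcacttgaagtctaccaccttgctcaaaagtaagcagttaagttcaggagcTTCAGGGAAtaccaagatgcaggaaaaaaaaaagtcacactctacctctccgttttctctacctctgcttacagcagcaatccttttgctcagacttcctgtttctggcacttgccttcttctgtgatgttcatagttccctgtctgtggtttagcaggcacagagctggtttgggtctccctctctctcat
Il13ra2, chrX:147429143-147429442 (-): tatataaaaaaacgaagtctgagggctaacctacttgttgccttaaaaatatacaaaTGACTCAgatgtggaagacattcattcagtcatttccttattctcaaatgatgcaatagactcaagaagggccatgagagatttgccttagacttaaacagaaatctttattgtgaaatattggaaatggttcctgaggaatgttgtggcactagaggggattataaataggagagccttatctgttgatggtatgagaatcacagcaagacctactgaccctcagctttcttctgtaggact
The downstream Il1rn window held 1 NF-kB type match at positions 30 to 38 counted from the start, and the upstream window held an AP-1 match, TGAGTCA, at positions -141 to -135 and an NF-kB type match, GGCAGTTCC, across the start. The Il7r window held 1 STAT match, TTCAGGGAA, at positions -142 to -134, and the Il13ra2 window held 1 AP-1 match, TGACTCA, at positions -193 to -187. No PU.1 type match was in the 4 windows. These motifs are common, being found in 8.3% (STAT), 7.81% (AP-1), 18.5% (NF-kB type) and 3.2% (PU.1 type) of 32851 promoters, and the matches are a description of the letters. The assembled Il13ra2 transcript with the highest level starts 12732 bases from the annotated start shown.

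Pathway genes outside the name rule were read from 4 lists. The shares of all genes called were 14.9% higher and 10.8% lower in HFD, 6.34% higher and 10.2% lower with CLE, and 4.79% higher and 7.66% lower with LU, and the counts below stand beside them. Of the 18 tested cytokines and receptor chains with other names 9 were called higher in HFD and 1 lower, Ctf1 (cardiotrophin, -0.93). The largest rises were those of Csf1r (2.39), the receptor of Il34 and Csf1 and also 1 of the 8 macrophage markers, of Csf2ra (1.89) and Csf2rb2 (1.56), chains for GM-CSF and its relatives, and of Sdc1 (1.86), a proteoglycan of the cell surface. Crlf2, named here after its values were seen because it is the partner of Il7r, rose by 0.96 (adjusted p = 0.000176, limma). With CLE 6 of the 18 were lower than in HFD and 2 higher, Tslp (0.74), the ligand of Il7r with Crlf2, and Sigirr (0.64), an inhibitory receptor of the IL-1 family. With LU 5 were lower and 1 higher, again Sigirr (0.60).

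Genes for the proteins that mature IL-1beta and IL-18 were among those that rose. Of 8 genes 6 were called higher in HFD and 0 lower, where 14.9% and 10.8% of all genes were, with Pycard (1.85) and Casp1 (1.58), the adaptor and the protease of the inflammasome, leading. Casp1 was 3.39, 6.91 and 5.80 FPKM in ND, 19.1, 16.9 and 16.4 in HFD, 5.72, 6.23 and 8.22 in CLE and 7.09, 8.63 and 9.24 in LU. Casp1, Pycard, Nlrc4 and Aim2 were lower with CLE and with LU than in HFD, 4 of 8 in each, where 10.2% and 7.66% of all genes were called lower. The macrophage markers were higher in HFD too, and their part in these values was not tested.

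Of 25 tested JAK, STAT, SOCS, PIAS and phosphatase genes 2 were higher in HFD, Ptpn6 (2.90), the phosphatase SHP-1 of blood cells, and Stat6 (0.62), the factor that acts below the IL-4 and IL-13 receptors. Called lower were 2, Cish (-2.25) and Socs2 (-0.63), feedback inhibitors of cytokine and growth hormone receptors. Cish varied widely, at 12.4, 28.9 and 6.88 FPKM in ND and 1.07, 2.13 and 3.51 FPKM in HFD. With CLE only Ptpn6 was called (-1.70), and with LU Ptpn6 (-1.41) and Socs2 (0.66). Of the 17 genes that signal below the IL-1 and IL-17 receptors 2 were higher in HFD, Zc3h12a (0.92) and Irak4 (0.87), 1 was higher with CLE, Irak2 (0.72), and 0 were called with LU by limma.

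**Figure D5:**
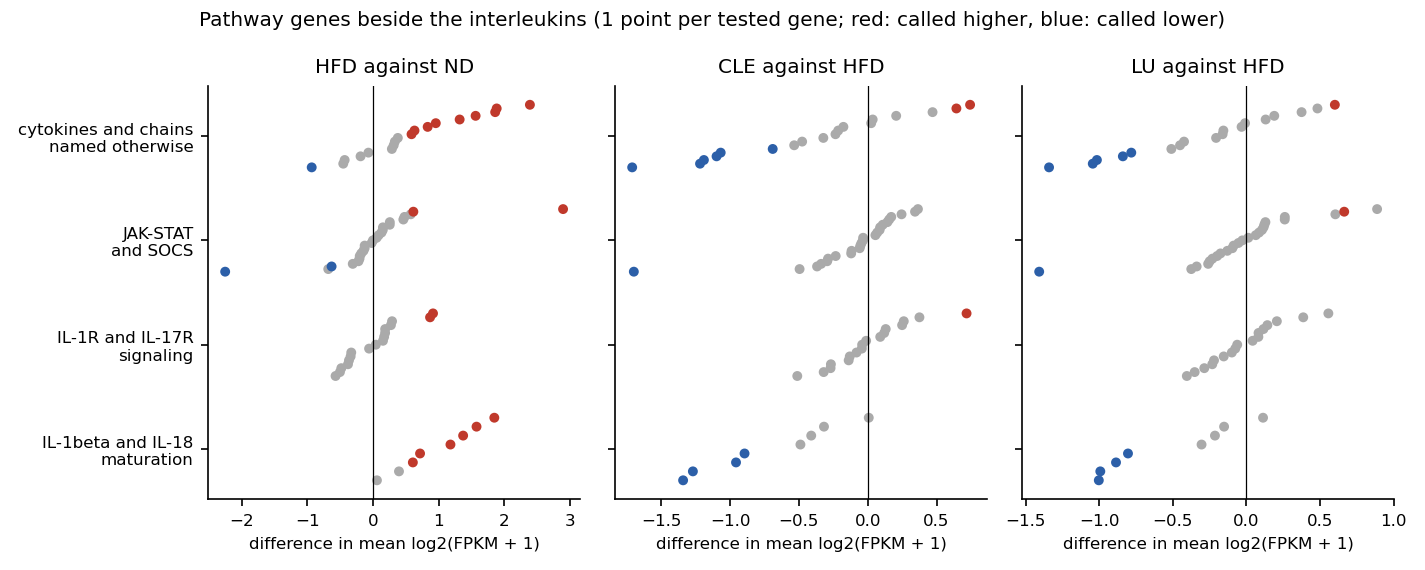
Differences in mean log2(FPKM + 1) of the tested genes of 4 pathway lists (rows, 1 point per gene, spread by rank) in the 3 comparisons, with called genes in red (higher) and blue (lower). In HFD against ND 6 of the 8 maturation genes are red, while most JAK-STAT and receptor signalling genes lie grey around 0, and the lone points at 2.90 and -2.25 are Ptpn6 and Cish.

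The remaining tested genes had no call in the 6 comparisons with all 12 libraries. The abundant receptor chains Il6ra and Il11ra1 had group means of 28.4 to 32.3 and 25.2 to 29.7 FPKM. Il2rg, the common gamma chain, had 7.25 to 9.66 FPKM and Il2rb, its partner in the IL-2 and IL-15 receptors, 2.24 to 3.14 FPKM. Il17ra, Il17rd, Il3ra, Il1rl2 and Il20rb had group means from 2.16 to 8.14 FPKM, apart from Il20rb in ND at 2.12 FPKM. Il17d, Il7 and Il18rap were lower, at 0.835 to 2.80 FPKM. In HFD against ND Il1rl2 (0.39, adjusted p = 0.00454) and Il3ra (0.38, adjusted p = 0.00761, limma) passed the adjusted p but not the fold. So did Il1rl2 in CLE against HFD (-0.37, adjusted p = 0.0107, limma).

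Of the 44 genes under the filter 9 were listed at 0 in all 12 libraries: Il3, Il9, Il11ra2, Il17a, Il1f10, Il1rapl2, Il22, Il24 and Il31. In all 39 stayed under 1 FPKM in every library, these 9 included, and 5 reached it somewhere (Il18r1, Il1b, Il1f5, Il1r2 and Il21r). Il1f5 did so only in HFD mouse 12 and CLE mouse 11, at 1.11 and 2.23 FPKM, the libraries with epidermal genes, and elsewhere was at most 0.0606 FPKM. In Il22ra2, the soluble protein that binds IL-22, HFD at 0.272, 0.152 and 0.110 FPKM lay below ND at 0.535, 0.462 and 0.390 FPKM and CLE at 0.546, 0.755 and 0.369 FPKM, and overlapped LU at 0.286, 0.250 and 0.455 FPKM. None of these low differences was tested by limma in the main fit. Il1r2 was called in the fit with no filter on low values, as given above. The read depth behind the low values is unknown, since the deposited values are FPKM alone.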

How the data were processed

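RNA of epididymal adipose tissue was sequenced by the authors as paired-end, oligo-dT selected libraries, 1 per mouse. Whether strand was marked or used is not given in the sources used here, nor is the genome build. The submitters' processing notes name CASAVA 1.8.2, TopHat2 2.0.12, Bowtie2 2.2.3 and Cufflinks 2.2.1. The deposited values are FPKM per assembled or annotated transcript, in which Cufflinks splits reads among transcripts fractionally, so that read counts and depth are not recoverable, and no interval for counting error is given. Columns of the authors' own comparisons (fold changes and p-values) were not used, nor were 3 of 15 FPKM columns that match no sample. The ND mouse 4 column was identified from a heading read as a misprint, which is an inference.

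The 152210 transcripts were assigned to genes by Ensembl identifier in GENCODE M21 (GRCm38, where 87.6% of annotated transcripts had the same start and end), or by deposited name where they overlapped that gene on its strand, as for 14 of the 15 transcripts of Il17rc. Of the genes, 77 deposited names fit the rule and gave 79 members, since transcripts of Il15ra and Il17re stood under the names Il2ra and Il17rc. Transcripts of Ifnar2, Creld1 and other neighbours under members' names were left out. A transcript was counted as annotated, or as an assembled variant sharing a splice junction with an annotated one (class code j). FPKM was summed per gene.

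Differences were fitted with limma 3.58.1 (R 4.3.3) on log2(FPKM + 1) over 12 libraries and the 12802 genes with at least 1 FPKM in at least 3 libraries, with Benjamini-Hochberg adjustment over all genes in each of 6 comparisons. Called means an adjusted p under 0.05 and a fold change above 1.5. The fit was tested on simulated data. Genes below the filter were compared by exact permutation tests. Each library is from 1 mouse, and the mice were housed singly per the study's methods. Alternatives changed the pseudocount, the filter, the scaling, the moderation, the samples fitted, the transcripts summed and the libraries used. The members, gene lists and named genes were chosen with earlier results of these data known, and the list of epidermal genes after its values were seen. Values per mouse are given for each called gene and for Il1b, Il6, Il10, Il18, Il33, Il1rn, Il4ra, Il6st and Il15. For other genes named with values (such as Il1r2, Il22ra2, Casp1 and Cish) the choice was made after their values were seen.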

Additional observations from a re-analysis of the deposited data

Results flagged for a closer look

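Some assembled transcripts under the names of these genes were not part of the gene sums. They differed from the group used as control. Under the name Il1rl1 stood a transcript on chromosome 1 from 40404834 to 40415917. It ended before the Il1rl1 gene, which runs from 40429570 to 40465415, and did not overlap it. This transcript was 0.292, 0.541 and 0.376 FPKM in ND and 1.25, 1.31 and 0.886 FPKM in HFD, a mean of 1.15 FPKM in HFD. At Il15ra a transcript of the opposite strand, on chromosome 2 from 11723524 to 11733242, was 9.15, 6.44 and 6.97 FPKM in ND and 2.73, 2.85 and 3.09 FPKM in HFD. With CLE it had a mean of 7.17 FPKM and with LU a mean of 5.71 FPKM, and every library of both groups lay above every HFD library. Strand use is not stated, so reads of this transcript and of Il15ra cannot be told apart. Groups of 3 mice are too small for a test of single outlying libraries.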

How the results depend on the processing

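Of 31 called differences of single genes 18 were called under every alternative in which the gene was tested, and 0 of 788 values reversed. With a mean of at least 5 FPKM only 19 of the 31 were tested. Without assembled variants Il1rl1 and Il13ra2 fell below the filter, so that their calls were not tried there. Summed by deposited name, Il15ra and Il17re had no value of their own. In 40 values, over 13 differences, the call was lost. The cause was not tested except where fewer genes or samples were fitted. With a mean of at least 5 FPKM, which tests fewer genes, the counts in HFD against ND were 5 higher, in CLE against HFD 2 higher, and in LU against HFD 1 higher and 3 lower. With the adjusted p alone 17 of the 35 genes passed in HFD against ND, 3 of them lower and the rest higher. In CLE against HFD 18 passed, 12 of them lower and the rest higher, and in LU against HFD 13, with 4 higher and 9 lower. In CLE against ND 1 passed and in LU against ND 6, all higher. The share of all genes at the adjusted p alone is not given here, so that these counts are a description. Genes called lower in HFD against ND were 3 with a pseudocount of 0.1, 3 with quantile normalization, 2 with the letter R as a covariate, 2 without the libraries with that letter and 2 without HFD mouse 12 and CLE mouse 11, the added ones being Il17rb and Il17re. Without assembled variants LU against HFD had 3 lower, with the transcript of highest mean CLE against HFD had 2 higher (Il34 at 0.20), and summed by deposited name LU against HFD had 1 higher, an alternative chosen after seeing the data. LU against ND had 5 higher with a pseudocount of 0.1 and 1, Il16, without the letter R libraries.

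Leaving out 1 mouse at a time gave 9 to 10 higher and 1 to 3 lower in HFD against ND (3 without ND mouse 3, 2 without ND mouse 2, ND mouse 4, HFD mouse 12 or HFD mouse 15), 3 to 4 higher and 5 to 8 lower in CLE against HFD, 1 to 2 higher (1 without HFD mouse 15, HFD mouse 18 or any 1 LU mouse) and 3 to 6 lower in LU against HFD (3 without LU mouse 3), 0 to 3 higher in CLE against ND (3 without CLE mouse 2) and 3 to 5 higher in LU against ND (5 without ND mouse 4). CLE and ND share the mouse numbers 2 and 4, and LU and ND 2 and 3. Deviations of same-numbered mice correlated by -0.10 and -0.00098, and by 0.10 and 0.19, over 2 pairs, so that the numbers were not taken as pairing. With them as a replicate block CLE against ND had 0 higher and 0 lower, and LU against ND 2 higher (Il1rn 2.36, Il7r 1.45) and 0 lower, Il10ra having an adjusted p of 0.0791 (limma). Depth limits the genes under 1 FPKM, which cannot be judged from FPKM alone.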
